A study of Danio rerio with 6 samples.

Results

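Cytokines, chemokines, their receptors, a Toll-like receptor and prostaglandin enzymes were examined in whole zebrafish larvae with and without a microbiota. The members were taken by symbol from the platform annotation: interleukins and their receptors (il followed by a digit), CXC and CC chemokines and their receptors, TNF superfamily ligands and receptors, colony-stimulating factors and receptors, Toll-like receptors, myd88, interferon gamma genes and the ptgs and ptges genes. The rule found 38 probesets for 32 genes among 15502 probesets tested. It used names and no measured value, but it was chosen with earlier results of these data known. The genes il1b, tnfa and myd88, which the rule also covers, are not analysed here.

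All larvae were of strain C32, were reared gnotobiotically and were sampled whole at 6 days post-fertilization. Germ-free larvae were kept so until sampling, whereas colonized larvae were germ-free through day 3 and then received a microbiota from conventionally raised zebrafish until day 6. Each group had 3 pools of 28 to 80 larvae, and each pool had its own 1-colour array, so that n is 3 pools per group. An array value is an intensity in arbitrary units on a linear scale, as normalized by the authors.

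Cytokines and chemokines are secreted proteins through which epithelial, stromal and immune cells signal to one another. Chemokines act on G protein-coupled receptors and direct the migration of cells, in development as well as in infection. Cytokines such as interferon gamma act through receptors coupled to JAK and STAT proteins, whereas TNF and Toll-like receptors feed into the NF-kB pathway. Cyclooxygenases make prostaglandin H2, the precursor of prostaglandin E2, and the inducible form is a common product of NF-kB signalling. In the gut these signals pass between the epithelium, which meets the microbiota, and the leukocytes beneath it.

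Array medians lay between 86.0 and 93.8, and Pearson correlations of log2 values between arrays ranged from 0.970 to 0.992, with germ-free pool 3 in the lowest values. The number that ends the sample title of germ-free pool 3 is out of sequence with those of the other arrays. The titles do not say what that number marks. RNA quality was read from the control probesets at both ends of acta1, where the 3' end exceeded the 5' end by 2.35 to 2.64 on the log2 scale in germ-free and by 2.79 to 3.00 in colonized pools. This ratio was thus higher in all colonized pools, along with every rise described here, and its part in them was not tested. Of 39 genes listed as markers of larval tissues, 33 had a probeset, and all 33 had a mean intensity of at least 64. They include muscle, liver, gut, pancreas, eye, neuron, blood and skin genes, from a list chosen with earlier results of these data known. By limma 2 of the 33 were called higher in colonized larvae and 5 lower, where 1.28% and 0.413% of all probesets were. These changes stood beside those described here, and their part in those was not tested. The higher ones were the embryonic globin gene hbbe2 (log2 change 1.72 ± 0.29 SE, adjusted p = 0.0148) and the liver gene tfa (0.83 ± 0.11 SE, adjusted p = 0.00387). The lower ones included the enterocyte gene fabp2 (-1.13 ± 0.07 SE, adjusted p = 3.57e-05) and the cone opsin gene opn1mw1 (-0.87 ± 0.15 SE, adjusted p = 0.0160), with the cone genes opn1sw2 and gnat2 and the pancreas gene cpa1. Other genes listed for gut, liver and pancreas did not pass. The gut gene vil1 was higher in colonized larvae (log2 change 0.46, adjusted p = 0.173), whereas chia.2 was lower (-0.28, adjusted p = 0.158). The liver genes fabp10a and apoa2 had log2 changes of 0.22 and 0.17. The pancreas genes prss1, ela2 and cela1.1 had -0.06, -0.18 and -0.13. The call of hbbe2 was lost without germ-free pool 1 or 2 or colonized pool 1 or 3 (adjusted p 0.0550 to 0.0676). That of opn1mw1 was lost without germ-free pool 1 or colonized pool 1 or 2 (0.0737 to 0.0977). In the same 3 fits the 5 lower calls of the list fell to 1, and without germ-free pool 2 to 4. Because whole larvae were homogenised, a lower level can come from fewer cells of a type or from less RNA per cell, and these cannot be told apart.

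A single member passed the test. The cyclooxygenase-2 gene ptgs2a (Entrez gene 246227), which encodes the inducible enzyme of prostaglandin synthesis, was higher in colonized larvae. The other 37 probesets, for 31 genes, did not pass, and their log2 changes lay between -0.24 and 0.38. The test was limma's moderated test on log2(intensity + 32), fitted to all probesets, with adjusted p under 0.05 as the threshold. Adding 32 understates the change of dim genes. Of the 38 probesets 1 was called, or 2.63%, beside 1.70% of all probesets, so the share of called members was near the background. By direction, 1 member was higher, beside 1.28% of all probesets, and 0 were lower, beside 0.413%. At an unadjusted p under 0.05, too, 0 members were lower, where 13.2% of all probesets were at that p in either direction and 8.54% were higher.

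Looser criteria took in more members. At an unadjusted p under 0.05 there were 5 of 38 members, or 13.2%, beside 13.2% of all probesets. All 5 were higher in colonized larvae, where 8.54% of all probesets were. The 2 groups did not overlap in 10 of 38 members, or 26.3%, beside 19.6% of all probesets. Of these, 9 were higher in colonized pools, or 23.7% beside 12.5%, and 1 was lower, or 2.63% beside 7.08%. The members' median log2 change was 0.05, and that of all probesets 0.02; 25 of the 38 were above 0, or 65.8% beside 55.2%.

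Most members were measured above the dim end of the array. Taking an intensity of 32 as near background, 28 probesets were above it on all 6 arrays and 10 were below it on at least 1 array. A mean below 32 over the 6 arrays was found for 5 members, or 13.2%, beside 18.5% of all probesets. Below 32 on every array were tlr21, tnfrsf19 and the second probeset of tnfsf10l4. Within-group coefficients of variation of members had medians of 13.9% for germ-free and 10.04% for colonized pools, beside 12.8% and 10.1% for all probesets.

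**Figure D1:**
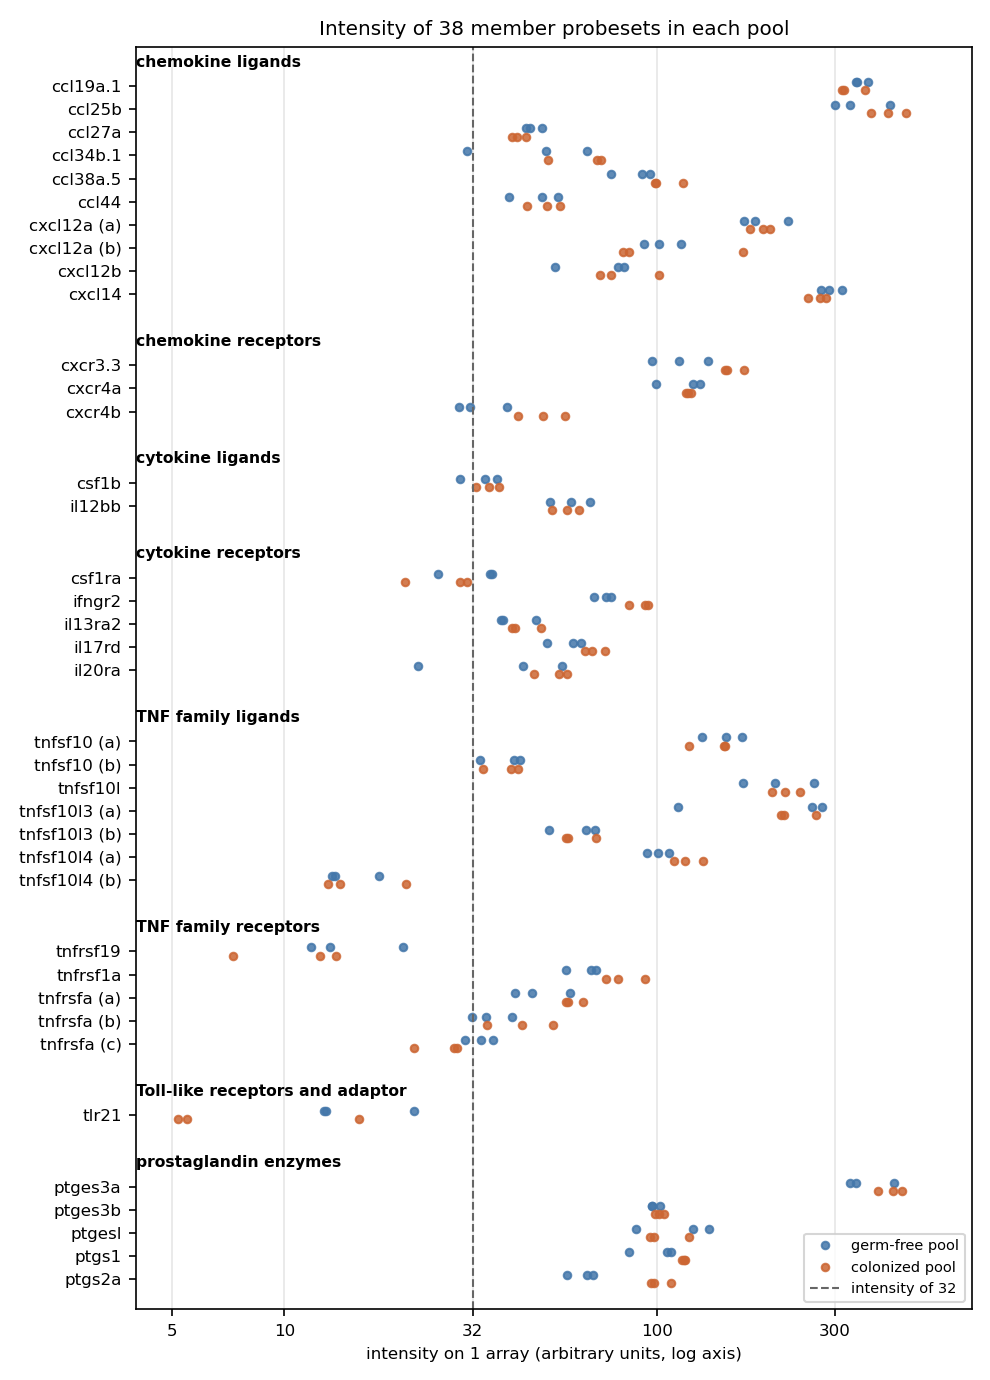
Intensity of each of the 38 member probesets (log axis, arbitrary units) in the 3 germ-free and 3 colonized pools, grouped by role, with letters for probesets of the same gene. The dashed line marks an intensity of 32; tlr21, tnfrsf19 and the second tnfsf10l4 probeset lie wholly to its left, and the colonized pools of ptgs2a lie to the right of its germ-free pools.

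Among the 5 prostaglandin enzymes 1 was called. The intensity of ptgs2a was 67.4, 64.7 and 57.4 in germ-free pools 1 to 3 and 98.3, 109 and 96.1 in colonized pools 1 to 3. Every colonized pool was above every germ-free pool, with a gap between 67.4 and 96.1. Mean intensity rose from 63.2 ± 5.16 to 101 ± 6.82 (SD, n = 3 pools per group), a ratio of 1.60, and the log2 change was 0.48 ± 0.09 SE (limma, adjusted p = 0.0271). Its 95% interval ran from 0.28 to 0.69. The size was kept when any 1 array was left out, with log2 changes of 0.44 to 0.52, but the call was not. Adjusted p was 0.0666 without germ-free pool 1, 0.0630 without germ-free pool 2, 0.103 without colonized pool 1, 0.168 without colonized pool 2 and 0.0658 without colonized pool 3. Without germ-free pool 3 it was 0.0399. The rise remained a call under all 8 alternatives that kept the 6 arrays (adjusted p 0.0115 to 0.0458).

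The constitutive cyclooxygenase gene ptgs1 had 109, 83.9 and 106 in germ-free pools and 119, 118 and 117 in colonized pools. The colonized pools were tightly grouped just above the germ-free pools, of which pool 2 was the lowest. Its log2 change of 0.19 ± 0.10 SE was not called (adjusted p = 0.458). On the log2 scale the change of ptgs2a exceeded that of ptgs1 by 0.29. The within-array difference between these paralogs did not overlap between groups, but 3 against 3 pools cannot give an exact permutation p below 0.10, and the two-sided p was 0.10 (0.20 adjusted over the 4 paralog pairs compared). These pairs were chosen after their values were seen.

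The genes named ptges3a and ptges3b encode p23, a co-chaperone of Hsp90 that also has prostaglandin E synthase activity in mammals. For ptges3a the intensities were 342, 330.1 and 431 in germ-free pools and 454, 391 and 429.8 in colonized pools. Germ-free pool 3 lay inside the colonized range, so the groups overlapped, and the log2 change of 0.20 ± 0.12 SE was not called (adjusted p = 0.511). Its paralog ptges3b stayed within 96.7 to 105 on all 6 arrays (log2 change 0.03, 95% interval -0.16 to 0.23). The membrane-associated prostaglandin E synthase gene ptgesl ranged from 87.8 to 138 in germ-free and from 95.7 to 122 in colonized pools, which overlapped (log2 change -0.11, adjusted p = 0.792).

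**Figure D2:**
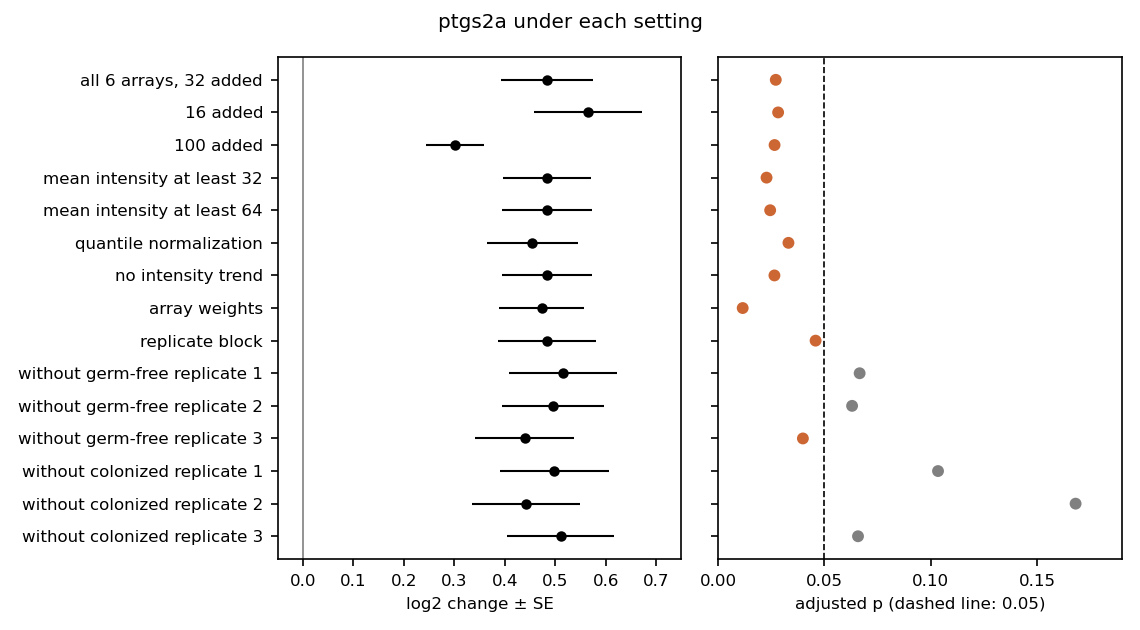
The log2 change of ptgs2a with its SE (left) and its adjusted p (right) in the fit to all 6 arrays with 32 added and under 14 alternatives. Changes lie between 0.30 with 100 added and 0.56 with 16 added; the adjusted p is above 0.05 in 5 of the 6 fits that leave out 1 array.

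Of 3 chemokine receptor probesets 0 were called by limma and 2 were at an unadjusted p under 0.05, with a median log2 change of 0.31. The intensity of cxcr3.3 (Entrez gene 799527), which encodes an atypical CXCR3 receptor of zebrafish macrophages, was 137, 96.7 and 115 in germ-free pools. In colonized pools it was 152, 171 and 154, all above the germ-free values. The means were 116 ± 20.2 and 159 ± 10.6, and the log2 change of 0.38 ± 0.12 SE was not called (adjusted p = 0.179). Its 95% interval of 0.12 to 0.63 reached past 1.5-fold on this scale.

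The receptor gene cxcr4b encodes the Cxcl12 receptor that steers the lateral line primordium and germ cells in the zebrafish embryo. Its values were 39.5, 29.4 and 31.4 in germ-free pools and 56.5, 42.5 and 49.3 in colonized pools. The groups did not overlap, although germ-free pools 2 and 3 were below 32. The log2 change was 0.31 ± 0.10 SE (adjusted p = 0.186, 95% interval 0.09 to 0.53), and the ratio of mean intensities was 1.48.

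The paralog cxcr4a, which also binds Cxcl12 chemokines, had 130.3, 125 and 99.2 in germ-free pools and 121, 119 and 123 in colonized pools. The colonized values lay inside the germ-free range (log2 change 0.03, adjusted p = 0.925). The change of cxcr4b exceeded that of cxcr4a by 0.28 on the log2 scale, with a two-sided exact permutation p of 0.10, the smallest 3 against 3 pools can give (0.20 adjusted over 4 pairs). This pair, too, was chosen after its values were seen. The other pairs compared were ptges3a with ptges3b and cxcl12a with cxcl12b. Their within-array differences overlapped between groups (exact permutation p of 0.40 for each, 0.40 adjusted).

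**Figure D3:**
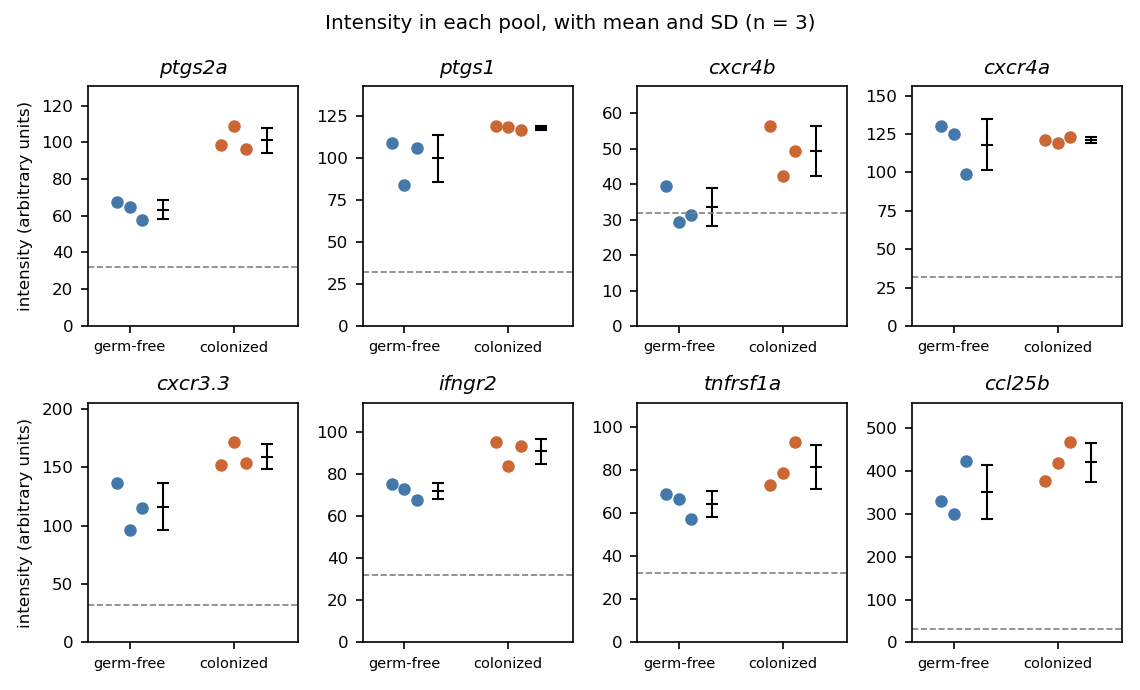
Intensity (arbitrary units, axes from 0) of 8 members in each pool, with mean and SD (n = 3) beside the points and a dashed line at 32. Germ-free and colonized pools are apart in ptgs2a, ptgs1, cxcr4b, cxcr3.3, ifngr2 and tnfrsf1a, and overlap in cxcr4a and ccl25b; of the 8, ptgs2a was called.

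The 10 probesets of chemokine ligands, for 9 genes, included 0 calls by limma, and 0 were at an unadjusted p under 0.05. Their log2 changes ran from -0.10 to 0.26 with a median of 0.04. The homeostatic chemokine gene ccl25b, whose mammalian counterpart attracts thymocytes and gut lymphocytes through CCR9, had 329, 300.1 and 422 in germ-free pools and 376, 417 and 466 in colonized pools. Germ-free pool 3 lay above colonized pools 1 and 2, and the log2 change of 0.25 ± 0.13 SE was not called (adjusted p = 0.462).

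The CC chemokine gene ccl34b.1, known in zebrafish as a marker of a microglial and macrophage subset, varied widely among germ-free pools at 65.0, 30.9 and 50.5. In colonized pools it had 50.9, 68.8 and 70.9, which overlapped with the germ-free range (log2 change 0.26, adjusted p = 0.513). Its 95% interval of -0.08 to 0.60 left a change of 1.5-fold undecided. The CC chemokine gene ccl38a.5 had 75.2, 95.5 and 90.9 in germ-free and 99.5, 98.9 and 117 in colonized pools. These groups were just apart, by less than the spread within either one, and the log2 change was 0.20 ± 0.10 SE (adjusted p = 0.446).

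The other chemokine ligand probesets had log2 changes of -0.10 to 0.15. Both probesets of cxcl12a, the Cxcr4 ligand, overlapped between groups, at 171 to 225 and 177 to 201 for the brighter probeset (log2 change -0.01, 95% interval -0.27 to 0.24). On the dimmer one, colonized pool 3 stood apart at 169.9, beside 84.1 and 81.0 in the other colonized pools and 92.2 to 116 in germ-free pools. The brighter probeset had 192 in that pool, between the other 2 colonized values. The paralog cxcl12b had 53.1 to 81.7 in germ-free and 70.3 to 101 in colonized pools, which overlapped (log2 change 0.15, 95% interval -0.16 to 0.46). For the epithelial chemokine gene cxcl14 the germ-free range was 276 to 314 and the colonized range 255 to 283 (log2 change -0.10, adjusted p = 0.700). The gene ccl19a.1, a counterpart of the mammalian CCR7 ligand CCL19, ranged from 341 to 367 and from 314 to 360.4 in the same order (log2 change -0.08, adjusted p = 0.779). The remaining chemokine genes ccl27a and ccl44 overlapped between groups, with log2 changes of -0.07 and 0.05.

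Of 5 cytokine receptor probesets, 0 were called by limma and 1 was at an unadjusted p under 0.05. That one was ifngr2 (Entrez gene 562820), a chain of the interferon gamma receptor, with 75.2, 72.7 and 67.6 in germ-free pools and 94.8, 83.8 and 93.0 in colonized pools. The groups were apart, with means of 71.9 ± 3.88 and 90.5 ± 5.87, and the log2 change was 0.24 ± 0.09 SE (adjusted p = 0.277). The gene il17rd, which in zebrafish encodes Sef, an antagonist of FGF signalling, was also apart, at 50.7 to 62.3 in germ-free and 64.1 to 72.7 in colonized pools (log2 change 0.16, adjusted p = 0.496).

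For il20ra, a receptor chain for cytokines of the interleukin-20 group, germ-free pool 3 had 22.8, below 43.7 and 55.7 in the other germ-free pools and 46.7 to 57.2 in colonized pools. The log2 change of 0.25 ± 0.15 SE was not called (adjusted p = 0.530), and without that pool it was 0.06. The decoy receptor gene il13ra2 overlapped between groups at 38.2 to 47.2 and 40.9 to 48.7. The macrophage and pigment cell receptor gene csf1ra, at 25.8 to 36.1 in germ-free and 21.0 to 30.8 in colonized pools, was below 32 on 4 of 6 arrays (log2 change -0.13, adjusted p = 0.646).

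Cytokine ligands were represented by 2 genes. The gene il12bb encodes a p40-type subunit shared by interleukin-12 family cytokines, and had 58.7, 51.5 and 66.1 in germ-free and 57.2, 61.7 and 52.2 in colonized pools. These values overlapped fully (log2 change -0.03, 95% interval -0.24 to 0.18). The sign of so small a change was not stable: it was 0.03 without germ-free pool 3 and 0.01 without colonized pool 3. The gene csf1b, a ligand of the Csf1 receptor, ranged from 29.6 to 37.2 and from 32.6 to 37.6 in the same order (log2 change 0.03, 95% interval -0.16 to 0.22).

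Of 5 probesets of TNF family receptors, 0 were called by limma and 1 was at an unadjusted p under 0.05. This was tnfrsf1a (Entrez gene 406471), the main receptor for TNF in most cells, with 68.7, 66.3 and 57.1 in germ-free pools and 72.8, 78.6 and 92.6 in colonized pools. The groups did not overlap, and means of 64.03 ± 6.13 and 81.4 ± 10.2 gave a log2 change of 0.24 ± 0.10 SE (adjusted p = 0.342). The TNF receptor family gene tnfrsfa had 3 probesets that did not move together. On the brightest one the values were 46.1, 41.6 and 58.5 in germ-free and 57.6, 63.3 and 57.0 in colonized pools, which overlapped through germ-free pool 3 (log2 change 0.18, adjusted p = 0.472). A second probeset had a log2 change of 0.16 (adjusted p = 0.565).

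The third tnfrsfa probeset, whose suffix marks probes that can match more than 1 transcript, ran the other way. It had 30.5, 33.7 and 36.2 in germ-free and 29.0, 22.3 and 28.6 in colonized pools, the only member with every colonized pool below every germ-free pool. Its log2 change was -0.16 ± 0.09 SE (adjusted p = 0.467), at intensities around 32. The gene tnfrsf19, which encodes the orphan receptor Troy, lay between 7.29 and 20.8 on all 6 arrays, in the range where a change cannot be read.

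The 7 probesets of TNF family ligands belonged to 4 genes of the TRAIL group, which in mammals signals through death receptors. By limma 0 were called, and 0 were at an unadjusted p under 0.05. The brighter tnfsf10l4 probeset had 108, 101 and 93.7 in germ-free and 111, 133 and 119 in colonized pools. Its groups were apart by a narrow margin (log2 change 0.20 ± 0.10 SE, adjusted p = 0.410), while the dimmer probeset was below 32 throughout.

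On its brighter probeset, tnfsf10l3 had 261, 277 and 114 in germ-free and 266, 215 and 219 in colonized pools. Germ-free pool 3 stood far below the rest. The log2 change of 0.16 ± 0.24 SE (adjusted p = 0.826) became -0.19 without that pool, so its direction rests on 1 array. The second tnfsf10l3 probeset had 64.6 in germ-free pool 3, inside the range of 51.3 to 68.4 of the other arrays. Both tnfsf10 probesets and that of tnfsf10l overlapped between groups, with log2 changes of -0.08 to 0.06.

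**Figure D4:**
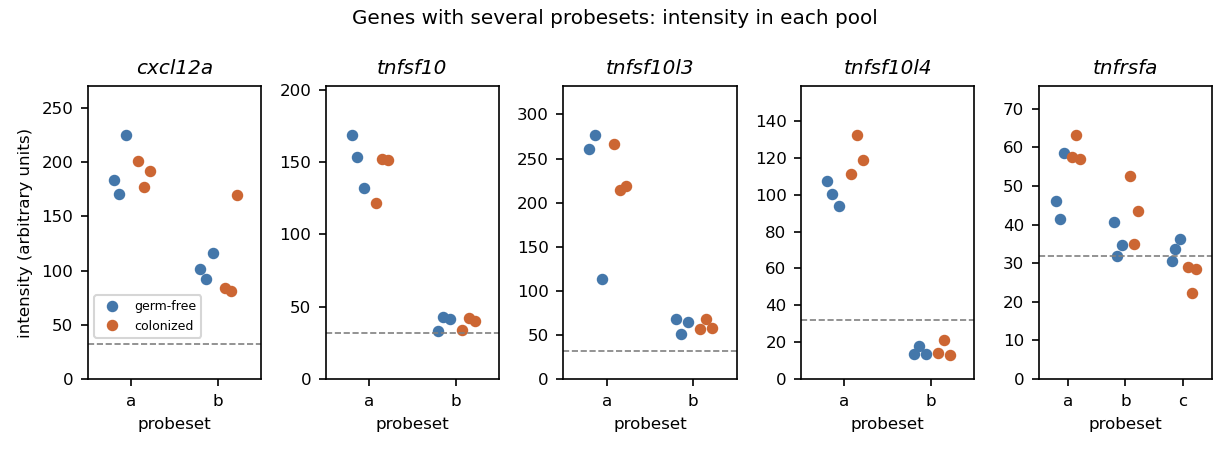
Intensity (arbitrary units, axes from 0) in each pool for the 5 genes with several probesets, ordered from the brightest (a), with a dashed line at 32. Germ-free pool 3 stands apart on tnfsf10l3 probeset a and colonized pool 3 on cxcl12a probeset b, each on 1 probeset of the gene, and tnfrsfa probeset c runs opposite to a and b.

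Toll-like receptors were represented by tlr21, which in fish recognises CpG DNA. Its values were 12.97, 12.8 and 22.3 in germ-free and 5.47, 15.8 and 5.18 in colonized pools. All lay below 32 and the groups overlapped, so that the log2 change of -0.24 ± 0.12 SE (adjusted p = 0.433) describes a signal near background.

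Intervals show what size of change the data left undecided for the members that did not pass. For 34 of the 37 the 95% interval lay within 1.5-fold in either direction on the log2(intensity + 32) scale. The upper bounds passed it for cxcr3.3, ccl34b.1 and the brighter tnfsf10l3 probeset, and 0 lower bounds did. These intervals are per probeset and not adjusted for multiple testing, and for dim probesets the added 32 shrinks them.

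**Figure D5:**
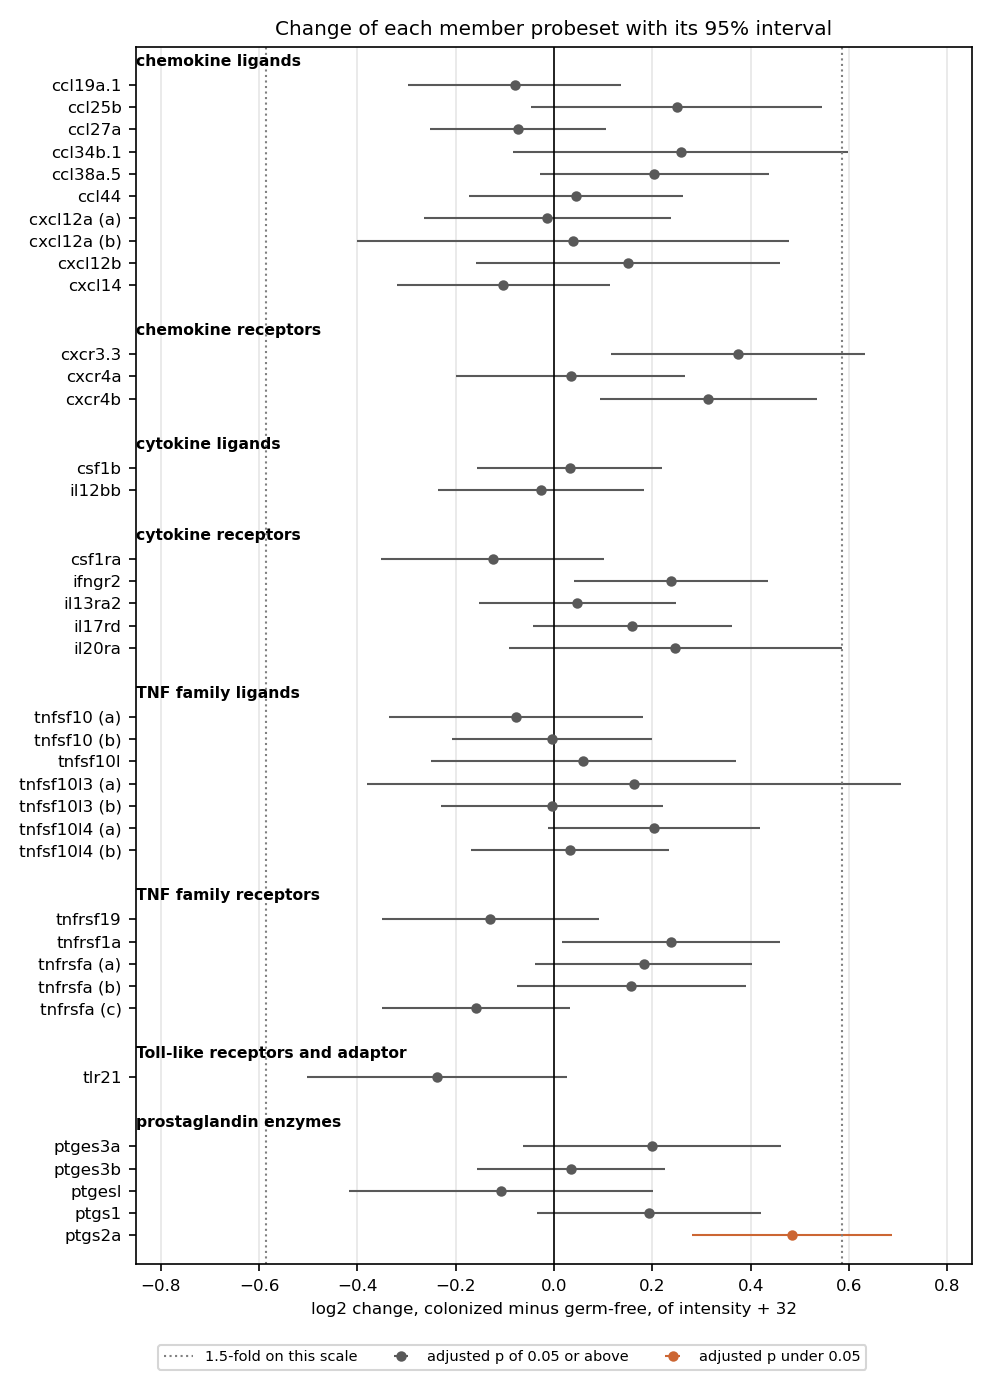
Log2 change (colonized minus germ-free, of intensity + 32) of the 38 member probesets with 95% intervals from limma, grouped by role, with dotted lines at 1.5-fold. The interval of ptgs2a lies wholly above 0, as do those of cxcr3.3, cxcr4b, ifngr2 and tnfrsf1a, which were not called after adjustment.

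Genes of signalling pathways linked to these ligands and receptors, and further eicosanoid and cytokine genes, were counted from lists, with 1 probeset per gene. The lists were chosen with earlier results of these data known, so the counts are no test of enrichment. Over all probesets 1.28% were called higher and 0.413% lower, 13.2% were at an unadjusted p under 0.05, and the median log2 change was 0.02. Of 18 measured NF-kB signalling genes 3 rose, 0 fell and 15 did not pass, with a median log2 change of 0.15. At an unadjusted p under 0.05 there were 8, all higher. The NF-kB inhibitor genes nfkbiaa (log2 change 1.15 ± 0.13 SE, adjusted p = 0.00122) and nfkbiab (0.84 ± 0.14 SE, adjusted p = 0.0115) rose, as did the apoptosis inhibitor gene birc2 (0.47 ± 0.10 SE, adjusted p = 0.0373). The call of birc2 was lost on leaving out either of germ-free pools 1 and 2 or any colonized pool (adjusted p 0.0836 to 0.209). That of nfkbiab was lost without colonized pool 1 or 2 (0.0566 and 0.0852), where the list held 1 call.

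Of 14 measured JAK-STAT genes 3 rose, 0 fell and 11 did not pass, with a median of 0.23. At an unadjusted p under 0.05 there were 8, of which 7 were higher and 1, the phosphatase gene ptpn11a, lower. Those that rose were the cytokine signalling suppressors socs3a (1.70 ± 0.16 SE, adjusted p = 0.000340) and socs3b (0.90 ± 0.15 SE, adjusted p = 0.0131) and the phosphatase gene ptpn6 (0.60 ± 0.11 SE, adjusted p = 0.0268), which in mammals damps cytokine receptor signals in blood cells. The call of socs3b was lost without colonized pool 2 or 3 (0.0912 and 0.0566), and that of ptpn6 without germ-free pool 1 or 2 or colonized pool 2 or 3 (0.0593 to 0.0977). The list held 5 calls without germ-free pool 3 and 1 without colonized pool 2 or 3. The kinase gene jak1 (log2 change 0.85, adjusted p = 0.0761) and the transcription factor gene stat3 (1.17, adjusted p = 0.0803) did not pass, although their groups did not overlap. The same held for socs1a (0.47, adjusted p = 0.0602) and jak2a (0.32, adjusted p = 0.211). Germ-free pool 3 was the lowest for jak1, at 127 beside 258 and 190 in germ-free pools 1 and 2. It was also the lowest for stat3, at 49.3 beside 163 and 131.

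Of 9 measured genes of Toll and interleukin-1 receptor signalling 0 passed by limma, and 0 were at an unadjusted p under 0.05. Of 8 further eicosanoid genes, such as the prostaglandin D synthase gene ptgdsb.1 and the leukotriene synthesis gene alox5ap, 0 passed by limma. At an unadjusted p under 0.05 there were 2, the prostacyclin synthase gene ptgis with a log2 change of 0.26 and the transporter gene abcc4 with -0.30. Of 16 further cytokine and chemoattractant genes 1 rose by limma and 0 fell. At an unadjusted p under 0.05 there were 5, of which 4 were higher and 1, the cytokine gene mif (log2 change -0.31), lower. The gene called was tgfb1a, which encodes transforming growth factor beta 1. Its mean intensity went from 22.1 ± 6.50 to 46.1 ± 1.02 (log2 change 0.54 ± 0.10 SE, adjusted p = 0.0259). All 3 germ-free pools lay below 32, so the size of the rise is uncertain. The call was lost without germ-free pool 1 or any colonized pool (adjusted p 0.0780 to 0.112).

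Markers of leukocytes were counted because several members are expressed in these cells. Their lists, too, were chosen with earlier results of these data known, so the counts are no test of enrichment. Of 7 measured genes listed as neutrophil markers 6 were called higher and 0 lower, beside 1.28% and 0.413% of all probesets. Expression of these genes by other cells of the larva was not tested. Their summed intensity, to which bright probesets add most, was 507 to 569 in germ-free and 1585 to 1965 in colonized pools. Most of that sum came from the matrix metalloproteinase genes mmp9 (2.39 ± 0.16 SE, adjusted p = 3.57e-05) and mmp13a (2.02 ± 0.13 SE, adjusted p = 3.57e-05) and the lysozyme gene lyz (1.27 ± 0.21 SE, adjusted p = 0.0125). The NADPH oxidase subunit gene ncf1 was also called (0.85 ± 0.09 SE, adjusted p = 0.00117). All 3 of its germ-free pools lay below 32, so the size of its rise is uncertain. Another called marker was below 32 on 5 of 6 arrays. The one not called was the myeloperoxidase gene mpx, with means of 166 and 224 (log2 change 0.38, adjusted p = 0.130). With the replicate number as a block the neutrophil list held 5 calls, and on leaving out 1 array 5 or 6. Of 10 general leukocyte markers 2 were called higher, lcp1 and coro1a, with sums of 757 to 1009 and 1193 to 1214. The germ-free sums vary partly through arhgdig. It had 88.0 in germ-free pool 3, beside 290 and 244 in germ-free pools 1 and 2 and 228 to 254 in colonized pools. Of 8 macrophage markers, which include the member csf1ra, 1 was called higher, marco, with sums of 606 to 631 and 706 to 782. That call was lost without germ-free pool 1 or 2 or colonized pool 2 or 3. The list's median log2 change was 0.12. The genes csf1ra (-0.13), cd74a (-0.24) and cd74b (-0.01) were below 0 and the others above it. The brightest gene of the list, ctss2.2, overlapped between groups, with means of 252 and 290. Of 5 lymphocyte markers 0 were called by limma or were at an unadjusted p under 0.05, and their sums overlapped. In these 4 lists 0 markers had a mean intensity of 0, which does not show that each was detected. The general leukocyte gene ptprc was below 32 on 5 arrays, and the macrophage genes ctss1 and csf1ra on 6 and 4. The part of leukocyte number in the members' values was not tested.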

How the data were processed

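Total RNA of each pool was labelled as biotin cRNA and hybridised to an Affymetrix zebrafish array, per the labels' protocols. The deposited intensities are linear. The authors used dChip, with invariant set normalization and the PM-MM model of each probeset, according to the series' design text. Such normalization removes a change shared by most genes. Of 15617 probesets, 115 controls were left out. Symbols came from the platform annotation, and all 32 member symbols were unchanged in the GRCz12tu gene table. Of the tested probesets 10795 had 1 symbol, 135 several and 4572 none; no member had several. The files give no genome positions.

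Log2(intensity + 32) was fitted with limma 3.58.1 in R 4.3.3 (group as the only term, intensity trend, two-sided, Benjamini-Hochberg over 15502 probesets, called at adjusted p under 0.05). Every adjusted p of a gene is from limma, and effects are colonized minus germ-free. The fit was tested on simulated data. The 4 paralog pairs were chosen after their values were seen and compared by exact permutation. Members and lists were chosen with earlier results of these data known. Named were called members, the 12 next largest changes with a group mean of at least 32, the brightest probeset per role, and up to 4 called genes per list; other members are given by range. The genes jak1, jak2a, stat3, socs1a, ptpn11a, ptgis, abcc4, mif, arhgdig, mpx, opn1sw2, gnat2 and cpa1 were named after their values were seen. Intensities of different probesets are not compared as transcript amounts. Precision is limited by having 3 pools per group. Alternatives were 16 or 100 added, filters at a mean of 32 or 64, quantile normalization, no trend, array weights, a replicate block, leaving out each array, and 1 probeset per gene. Replicate numbers were no block in the reported fit, since the labels do not say that they mark a shared batch. Between same-numbered pools, deviations from the group means correlated at -0.084, 0.097 and 0.069, and the numbers were not taken to pair the pools. A correlation over all probesets cannot decide this for single genes.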

Additional observations from a re-analysis of the deposited data

How the results depend on the processing

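With 6 arrays and 3 pools per group, the number of called members was 1 under all 8 alternatives that kept every array, and 0 or 1 when 1 array was left out (0 in 5 of the 6 such fits). Of all probesets, 263 were called, 569 with array weights, and 114 to 410 when 1 array was left out. The 7 called genes of the 5 pathway lists were 2 to 9 on leaving out 1 array. The members' median log2 change of 0.05 was 0.15 when only the 33 members with a mean intensity of at least 32 were counted. With the 20 of at least 64 it was 0.16. These counts leave out dim members, and under the same filters the median of all probesets was 0.02 and 0.03. With 1 probeset per gene, called members numbered 1, as with any probeset. Of 34 probesets, 16 members and 18 called genes of the signalling, leukocyte and tissue lists, 2 changed direction under some alternative: tnfsf10l3 was -0.0080 with array weights and -0.19 (without germ-free replicate 3) to 0.36 (without germ-free replicate 2) on leaving out 1 array, and il12bb was -0.084 (without germ-free replicate 2) to 0.031 (without germ-free replicate 3). With the replicate number as a block, 274 probesets were called and ptgs2a stayed called (adjusted p = 0.0458); of the named genes birc2 lost its call (adjusted p = 0.0672) and no other named call changed. Members near an intensity of 32 have values that background limits.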
